A study of Mus musculus with 425 samples.

Results

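The caput is the head of the epididymis, the duct in which sperm leaving the testis mature. Messenger RNA of mouse caput tissue was compared between 3 libraries from males that lack Dgcr8 in germ cells (cKO, genotype Dgcr8fl/fl; Stra8-iCre) and 3 control libraries (genotype Dgcr8+/fl; Stra8-iCre). These 6 libraries were taken by their column names and labels from 425 samples in all, which also cover small RNA of sperm and epididymis, embryos, and a second Cre line. Dgcr8 is the RNA-binding partner of Drosha, the nuclear enzyme that cuts primary miRNA transcripts. Stra8-iCre expresses Cre recombinase in male germ cells before meiosis, so the epididymal cells of both groups were not its target. The controls, described by the submitters as heterozygous siblings, also carried the Cre transgene and 1 floxed Dgcr8 allele. Age is not given in the sources used here, nor is it stated whether each library came from a separate animal. The p-values below therefore reflect only how far these libraries scatter, part of which may be technical.

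The caput duct is lined by principal cells, which secrete lipocalins, beta-defensins, cystatins and Gpx5 into the lumen, with clear, basal and immune cells among them and smooth muscle around them. Its most proximal stretch, the initial segment, depends on factors that reach it in the testicular fluid. The lumen holds sperm, and any cells or debris shed from the testis pass through it. Round and elongating spermatids make protamines and transition proteins, which replace histones as the sperm nucleus condenses, and their transcripts are stored for later translation. Bulk tissue RNA therefore contains transcripts of the duct wall and of whatever the lumen holds, and fewer cells of a type cannot be told apart from less RNA per cell.

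Values were in TPM, a transcript level corrected for transcript length that sums to the same total in every library, so read depth is unknown. Between 16612 and 17079 genes were above 0 in the cKO libraries, against 11958 to 16124 in the control libraries. Control library 2 stood apart with the 11958, and many low genes were listed at exactly 0 in it alone. The 100 most abundant genes took 45.6 to 47.6% of the TPM in cKO libraries and 47.9 to 50.3% in control libraries. The caput markers were as labelled. Lcn8, a caput lipocalin, was at 14807 to 19064 TPM in the cKO caput and 16728 to 27753 TPM in the control caput, and its highest level in 8 cauda libraries of the same line was 12.37 TPM. Gpx5, a secreted glutathione peroxidase, was at 26331 to 33514 TPM in the cKO caput and 21136 to 32513 TPM in the control caput, against at most 244 TPM in the cauda. Crisp1, abundant toward the tail of the duct, was at 15.5 to 111.7 TPM in the 6 caput libraries and at 3503 to 7221 TPM in the cauda.

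Libraries with the same number in the 2 groups resembled each other. Lcn5, a lipocalin of the mid and distal caput, was at 13422, 2918 and 3529 TPM in cKO libraries 1 to 3, against 13343, 598 and 689 TPM in control libraries 1 to 3. The libraries numbered 1 were thus the high ones in both genotypes. Clu, the chaperone clusterin, followed the same order, with 16466, 10102 and 12108 TPM in the cKO and 16749, 5147 and 6019 TPM in the control. The test was therefore also fitted with the number as a replicate block, and its calls are given where they concern a gene list.

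Dgcr8 itself, read in tissue whose own cells keep the gene, was at 0.90, 1.10 and 2.44 TPM in the cKO caput and 0.91, 2.07 and 1.33 TPM in the control caput. The groups overlapped fully. An exact two-sided permutation test over the 6 libraries gave p = 1, where the smallest p this design allows is 0.1. Stra8 was listed at 0 in all 6 libraries. Neither gene therefore checks the genotype labels in this tissue.

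Of 11776 genes tested with limma on log2(TPM + 1), 97 passed a Benjamini-Hochberg adjusted p of 0.05, or 0.824%. Of these, 95 rose in the cKO (0.807% of genes tested) and 2 fell (0.017%). The 95 had a median log2 change of 1.86, none overlapped between the groups, and the smallest ratio of group means was 2.15. With the replicate block 322 genes were called (2.73%), 315 higher (2.67%) and 7 lower (0.0594%), and 95 of the 97 were among them. The calls rested on few libraries: the total fell to 13 without cKO library 2 and to 1 without cKO library 3, and it was 160 without control library 1 and 183 without control library 2. No gene was called when the 8 cauda libraries entered the same fit, in which 2655 genes had an unadjusted p under 0.05.

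**Figure D1:**
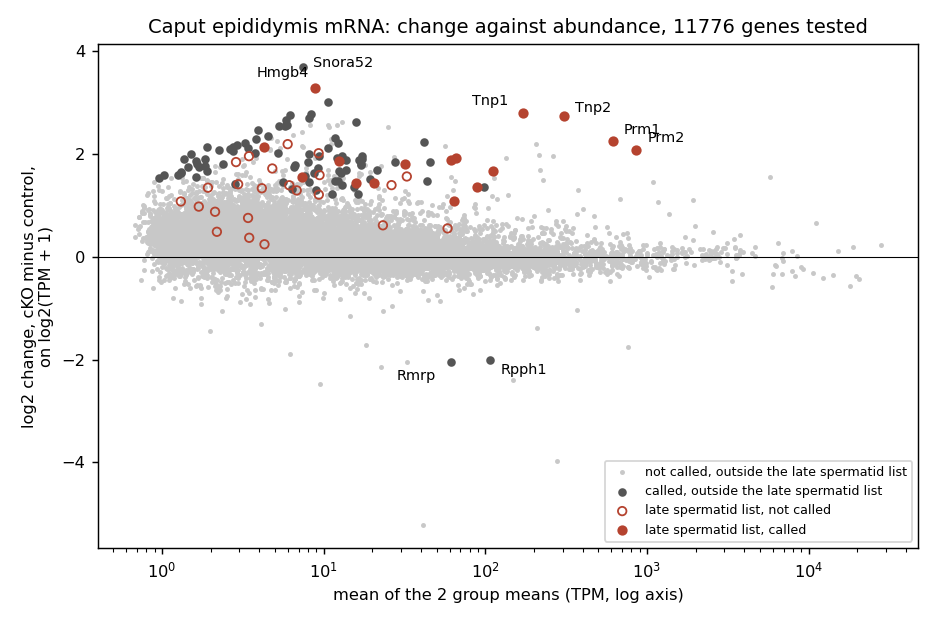
Each point is a gene tested in the caput, with the mean of its 2 group means (TPM, log axis) on x and its log2 change, cKO minus control, on y; red points belong to the late spermatid list (filled where called) and dark points are other called genes. The protamines and transition proteins are the most abundant called genes, and Rmrp and Rpph1 are the 2 called genes below 0.

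The whole distribution leaned upward. The median log2 change over all genes tested was 0.21, and 73.8% of genes were above 0. After each library was scaled by its median ratio to the geometric mean, the median was 0.03, and 57 genes were called. Small upward changes are therefore to be read against 0.21.

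Transcripts of late spermatids made up the most abundant group of called genes. Prm2, which encodes the protamine that is processed after it binds sperm DNA, was at 1308, 1539 and 1330 TPM in the cKO caput, against 296, 306 and 382 TPM in the control caput. All 3 cKO libraries lay far above all 3 controls, with means of 1392 ± 127 and 328 ± 46.9 TPM (SD, n = 3 each). The log2 change was 2.09 (SE 0.14, limma adjusted p = 0.000465), and Prm2 kept its call when any single library was left out. Prm1, the second protamine, was at 688, 1379 and 978 TPM in the cKO caput and 135, 262 and 237 TPM in the control caput. Its log2 change was 2.26 (SE 0.31, limma adjusted p = 0.0229; 7.76e-05 with the replicate block). Library 2 was the highest and library 1 the lowest in both genotypes, so the 3 pairs moved in parallel. Leaving out cKO library 2 or 3, or control library 2 or 3, lost the call of Prm1, with limma adjusted p of 0.076, 0.177, 0.0628 and 0.064.

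The transition proteins, which occupy spermatid DNA between histones and protamines, had the largest log2 changes among the 8 called genes that averaged 100 TPM or more in the cKO. Tnp2 was at 376, 740 and 489 TPM in the cKO caput, against 59.7, 90.6 and 80.0 TPM in the control caput. Tnp1 was at 204, 424 and 271 TPM in the cKO caput, against 32.4, 39.0 and 50.4 TPM in the control caput. Neither gene overlapped between groups, and the ratios of group means were 6.97 for Tnp2 and 7.39 for Tnp1. The log2 changes were 2.75 (SE 0.25) and 2.81 (SE 0.26), with limma adjusted p of 0.00269 and 0.00289. Without cKO library 3 both had an adjusted p of 0.0587.

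**Figure D2:**
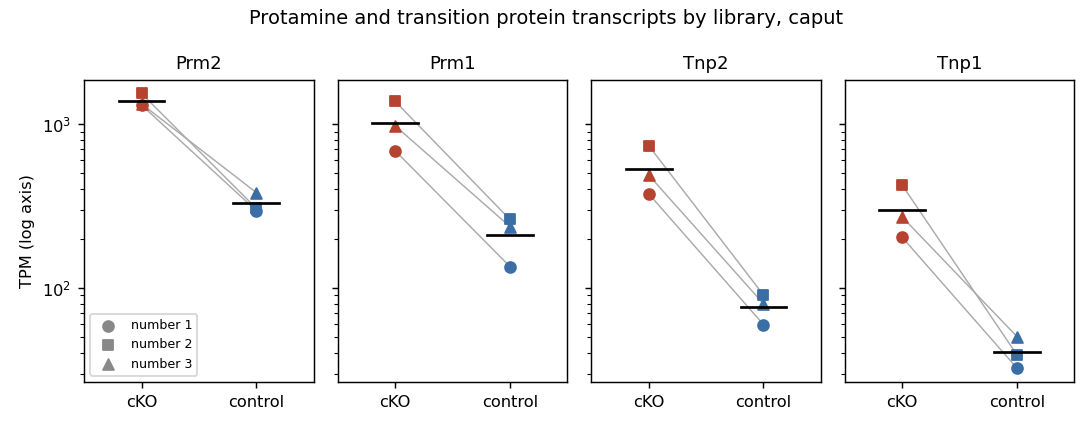
TPM (log axis) of Prm2, Prm1, Tnp2 and Tnp1 in the 3 cKO caput libraries (left of each panel) and the 3 control caput libraries (right); grey lines join libraries of the same number and black bars are group means. In all 4 genes the lowest cKO library, at 204 TPM or more, lies above the highest control library of that gene.

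Prm1, Prm2, Prm3 and Tnp2 lie side by side on mouse chromosome 16, within 8889 bases (chr16:10787935-10796823, GRCm38), while Tnp1 is on chromosome 1 (chr1:73015074-73015899) and Hmgb4, a high mobility group protein of spermatids, is on chromosome 4 (chr4:128260212-128260895), inside Csmd2. The promoters of the protamine and transition protein genes that were called, and of Hmgb4, the called member with the largest change, are given here. Each is 300 bases, 250 before the annotated start and 50 after it, from RefSeq on GRCm38.p6, read 5′ to 3′ on the gene's minus strand. Capitals mark matches on either strand to TGACNTCA, a form of the cAMP response element bound by the CREB and CREM family, to TATAA, a core word of the TATA box, and to the longer word TATATA. Matches to the last 2 overlap each other in Prm2 and Tnp2.
Prm1 (chr16:10796774-10797073): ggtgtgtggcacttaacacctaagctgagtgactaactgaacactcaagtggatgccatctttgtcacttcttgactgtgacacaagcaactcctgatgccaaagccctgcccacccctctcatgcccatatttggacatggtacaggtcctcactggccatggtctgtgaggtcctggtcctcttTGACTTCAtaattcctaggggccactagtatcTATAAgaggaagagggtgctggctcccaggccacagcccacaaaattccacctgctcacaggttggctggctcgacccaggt
Prm2 (chr16:10792056-10792355): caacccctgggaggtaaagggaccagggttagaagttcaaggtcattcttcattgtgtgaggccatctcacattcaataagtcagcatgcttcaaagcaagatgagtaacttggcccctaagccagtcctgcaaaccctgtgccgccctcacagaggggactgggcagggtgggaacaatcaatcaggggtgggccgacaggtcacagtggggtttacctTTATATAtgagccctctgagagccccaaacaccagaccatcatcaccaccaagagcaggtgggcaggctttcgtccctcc
Tnp2 (chr16:10788606-10788905): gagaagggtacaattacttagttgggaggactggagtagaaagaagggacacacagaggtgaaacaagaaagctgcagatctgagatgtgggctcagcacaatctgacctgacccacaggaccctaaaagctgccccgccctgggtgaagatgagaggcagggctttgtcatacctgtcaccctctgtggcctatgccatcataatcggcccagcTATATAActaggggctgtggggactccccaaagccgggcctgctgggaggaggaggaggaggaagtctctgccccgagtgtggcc
Tnp1 (chr1:73015850-73016149): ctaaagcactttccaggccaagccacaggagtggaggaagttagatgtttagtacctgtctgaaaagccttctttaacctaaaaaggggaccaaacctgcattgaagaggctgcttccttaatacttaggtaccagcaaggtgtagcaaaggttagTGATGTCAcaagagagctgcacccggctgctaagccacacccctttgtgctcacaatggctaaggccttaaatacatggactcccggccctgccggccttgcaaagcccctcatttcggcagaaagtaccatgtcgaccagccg
Hmgb4 (chr4:128260846-128261145): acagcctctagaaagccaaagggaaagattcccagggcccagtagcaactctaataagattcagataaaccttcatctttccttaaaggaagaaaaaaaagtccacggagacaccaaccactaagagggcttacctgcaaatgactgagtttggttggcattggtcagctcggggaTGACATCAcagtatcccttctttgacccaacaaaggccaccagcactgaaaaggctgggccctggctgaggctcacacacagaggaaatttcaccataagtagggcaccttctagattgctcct

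TGACNTCA was found in the windows of Prm1, Tnp1 and Hmgb4, and its letters are not in those of Prm2 and Tnp2. Prm2 and Tnp2 hold TATATA at 29 and 35 bases before the start, and Prm1 holds TATAA at 32 bases before it. Over all 32851 promoter windows in the table, 8.83% held TGACNTCA, 24.9% held TATAA and 5.67% held TATATA. Of the 16 late spermatid genes called, 14 had a promoter entry, and 8 of the 14 held TGACNTCA in at least 1 window, 5 held TATAA and 2 held TATATA; 3 of the 14 had more than 1 window. These are matches of letters, and no binding was measured.

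The late spermatid list held 51 genes of the table, of which 39 passed the filter of 1 TPM in at least 3 libraries. Of the 39, 16 rose, none fell and 23 were not called, beside 0.807% of all genes tested that rose. With the replicate block 27 rose, beside 2.67% of all genes tested. The list's median log2 change was 1.43, beside 0.21 over all genes tested, and 31 of the 39 did not overlap between groups, all higher in the cKO, beside 17.7% of all genes tested. Among the 31 was Car2, which stands on the clear cell list too. All 39 were above 0, and 37 were after quantile normalization. The 3 cKO libraries alone can meet the filter, so a low gene could enter the test by being high in the cKO. Akap4, at 0.92, 0.61 and 1.33 TPM in the control, would not have passed on its control values. These counts are therefore partly set by the filter, here and for all genes tested. The 12 genes that did not pass the filter never exceeded 2.18 TPM, and the cKO mean was the higher in 8 of them. The count was 6 without cKO library 2, 1 without cKO library 3 and 26 without control library 2, while the median stayed between 1.37 and 1.75 whichever single library was left out. Summed over the 51 genes the list took 3463, 5222 and 4233 TPM in the cKO libraries, against 874, 1085 and 1143 TPM in the control libraries. Equal-numbered libraries differed by ratios of 3.96, 4.81 and 3.70 in these sums.

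Other called members of the list belong to different parts of the spermatid. Hmgb4 was at 10.9, 20.4 and 18.6 TPM in the cKO caput, against 1, 0 and 1.71 TPM in the control caput. Its log2 change of 3.28 (SE 0.39, limma adjusted p = 0.00480) was the highest of the list. Among proteins of the flagellum, Akap4, the main anchoring protein of the fibrous sheath, had 6.38, 8.79 and 7.42 TPM in the cKO and 0.92, 0.61 and 1.33 TPM in the control. Odf1, a component of the outer dense fibres, had 89.8, 83.9 and 86.3 TPM in the cKO and 42.4, 34.1 and 44.4 TPM in the control. The Odf1 groups did not overlap either, but its log2 change of 1.09 was the smallest among the called members. Gapdhs, the glycolytic enzyme of the sperm tail, had 72.2, 104.6 and 113.0 TPM in the cKO and 18.0, 27.6 and 31.0 TPM in the control. Smcp, a protein of the mitochondrial capsule of the midpiece, had 136, 106 and 142 TPM in the cKO and 51.5, 61.3 and 37.1 TPM in the control.

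Oaz3, the testis form of ornithine decarboxylase antizyme, was at 143, 187 and 178 TPM in the cKO caput and 50.7, 46.7 and 59.6 TPM in the control caput (log2 change 1.67, SE 0.16, limma adjusted p = 0.00269). Gsg1, a germ cell gene, was at 88.7, 119.9 and 104.9 TPM in the cKO and 20.9, 28.1 and 32.4 TPM in the control. Spem1, needed in mice to shed spermatid cytoplasm, was at 37.6, 59.9 and 52.1 TPM in the cKO and 10.7, 11.1 and 19.4 TPM in the control. Spata18, Dnajb3 and the testis-specific serine kinases Tssk2 and Tssk6 were the remaining called members, with log2 changes of 1.87, 1.43, 1.55 and 1.43. Their limma adjusted p were 0.00434, 0.0464, 0.0413 and 0.0430. Of 23 alternative fits, Spata18 was called in 21, Dnajb3 in 11, Tssk2 in 11 and Tssk6 in 10. The 23 include the fits with the block that left out both libraries of a number, which rest on few libraries. For none of these genes did the groups overlap.

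With the replicate block 11 further members were called. Prm3, the small gene between Prm2 and Tnp2, was at 30.9, 63.1 and 51.0 TPM in the cKO caput, against 9.73, 29.7 and 11.5 TPM in the control caput. Its lowest cKO value lay just above the high value of control library 2, and the log2 change of 1.57 had a limma adjusted p of 0.237 without the block and 0.00747 with it. Among the others were Pgk2, a phosphoglycerate kinase of germ cells, Crisp2, Hspa1l, Tssk1, Odf2, Tssk3, Akap3, Actl7a and Fscn3, with log2 changes of 1.30 to 2.20. The smallest values belonged to genes that ciliated cells also use and that neither fit called, the tektins Tekt1, Tekt2 and Tekt4, with log2 changes of 0.25, 0.49 and 0.37.

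**Figure D3:**
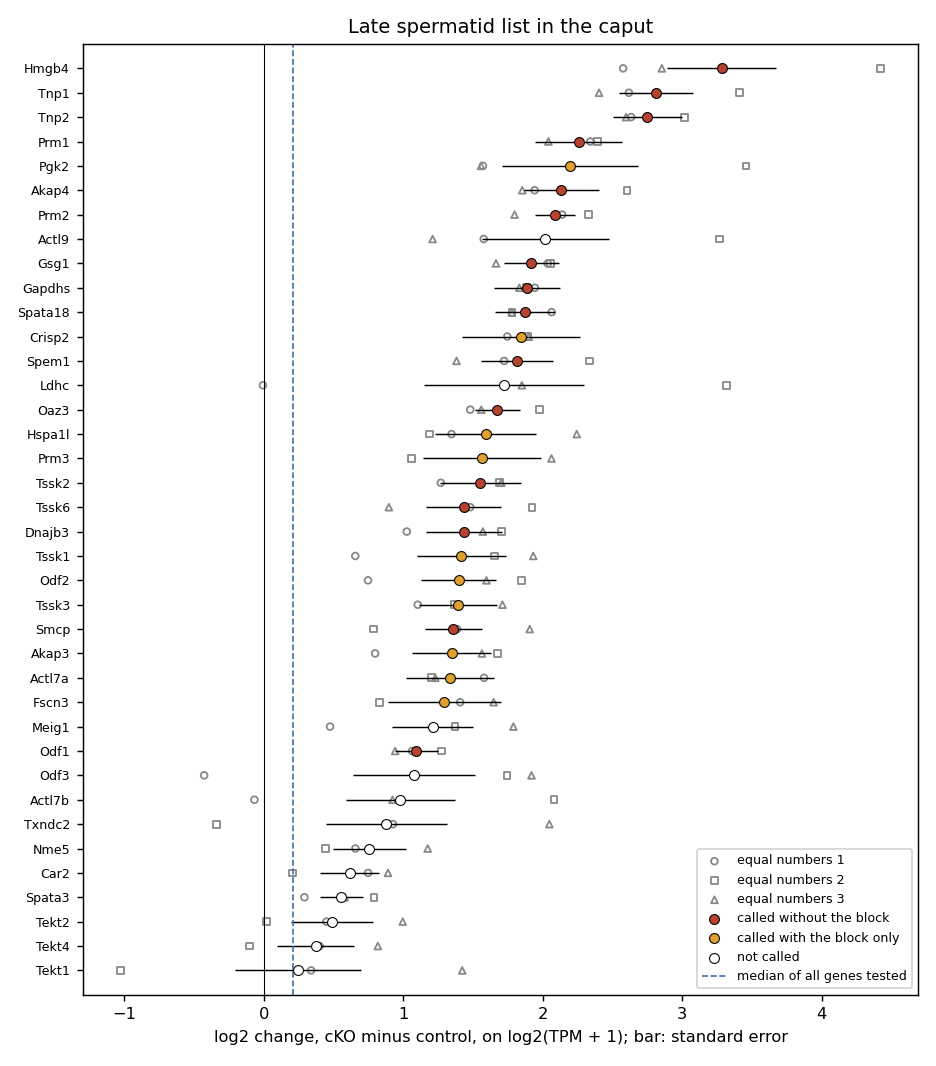
Log2 change, cKO minus control, on log2(TPM + 1), of 38 of the 39 tested late spermatid genes, with bars of 1 standard error; small open symbols are the differences between libraries of the same number, and the dashed line is the median of all genes tested, 0.21. The 16 genes called without the block run from 1.09 to 3.28, and the tektins lie at the bottom.

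Transcripts of earlier germ cells were mostly too low to test. Of 41 genes of spermatogonia, spermatocytes and early germ cells in the table, 16 passed the filter, and Stra8, Ddx4, Dazl, Sycp1, Sycp3 and Piwil1 were among the 25 that did not. Of the 16, 1 rose, none fell and 15 were not called, beside 0.807% of all genes tested that rose. The median log2 change was 0.77, beside 0.21 over all genes tested. In 7 of the 16 the groups did not overlap, all higher in the cKO, beside 17.7% of all genes tested. The gene that rose was Tcp11, a germ cell gene also used in spermatids, with 61.3, 80.4 and 73.1 TPM in the cKO caput and 16.4, 15.5 and 26.8 TPM in the control caput (log2 change 1.85, SE 0.22, limma adjusted p = 0.00480). Pgk2, which stands on both germ cell lists, was added by the block, so 2 of the 16 were called higher with it, beside 2.67% of all genes tested. The summed level of the 41 genes was 401, 413 and 463 TPM in the cKO libraries and 320, 264 and 297 TPM in the control libraries, a smaller difference than in the late spermatid list. Of 20 markers of Sertoli and Leydig cells, which remain in the testis, 7 were tested and none was called. Their median log2 change was 0.51, with 6 of the 7 above 0. The 20 summed to 118 to 152 TPM in the cKO and 112 to 134 TPM in the control. Inhbb, Sox9 and Inha made up most of this, with control means of 69.3, 13.9 and 13.3 TPM. Amh, Insl3 and Cyp17a1 never exceeded 5.64 TPM in the caput. Which cells these transcripts came from was not tested.

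Most of the genes that rose, 77 of 95, stood on no list. The rule for named genes picked those with the largest changes and a mean of 5 TPM or more. Slfnl1 was at 21.9, 33.0 and 29.5 TPM in the cKO caput and 2.97, 3.06 and 5.13 TPM in the control caput, with a log2 change of 2.64 (SE 0.25) that kept its call in all leave-one-out fits except that without cKO library 3. Fabp9, a fatty acid binding protein of the sperm perforatorium, was at 12.7, 16.3 and 14.5 TPM in the cKO and 2.51, 0 and 2.76 TPM in the control. Spata19, a sperm mitochondrial protein, was at 7.70, 16.2 and 10.7 TPM in the cKO and 1.63, 0 and 1.11 TPM in the control. Prss55, a serine protease of sperm, was at 4.05, 11.9 and 6.34 TPM in the cKO and 0.62, 0 and 0.70 TPM in the control. In each of the last 3 genes control library 2 was listed at 0 and the other 2 controls were low as well.

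The other genes named by that rule were Tmem247, Smim23, 1700001C19Rik, 1700019D03Rik, 4930544D05Rik, Iqcf1, H2afb1 and Snora52. The first 7 had log2 changes of 2.35 to 3.02 and were listed at 0 in control library 2. Iqcf1 and H2afb1 missed the threshold with the replicate block, with limma adjusted p of 0.0633 and 0.0602. H2afb1 belongs to a family of near-identical X-linked histone genes, so the split of reads among its copies is uncertain. Snora52, a small nucleolar RNA, was at 28.6, 5.61 and 10.2 TPM in the cKO and listed at 0 in all 3 controls, which allows no fold. It passed the filter through the cKO libraries alone. Across all 95 genes, 38 were listed at 0 in control library 2 and 5 in every control, 26 had provisional Rik symbols, and 8 averaged 100 TPM or more in the cKO. Without control library 2 the number called rose to 183.

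The 2 genes that fell encode catalytic RNAs. Rmrp is the RNA of RNase MRP, which takes part in ribosomal RNA processing, and Rpph1 is the RNA of RNase P, which trims the leader of transfer RNA precursors. Rmrp (chr4:43492785-43493059, GRCm38) was at 22.2, 20.4 and 25.3 TPM in the cKO caput, against 99.1, 66.9 and 135.3 TPM in the control caput. Rpph1 (chr14:50807447-50807771) was at 34.0, 41.6 and 50.2 TPM in the cKO caput, against 185.6, 125.7 and 205.5 TPM in the control caput. In both, the highest cKO library lay well below the lowest control. The log2 change fell by 2.05 for Rmrp (SE 0.24, limma adjusted p = 0.00473) and by 2.00 for Rpph1 (SE 0.21, limma adjusted p = 0.00329). Rmrp missed the threshold without cKO library 2 or cKO library 3 (0.0628 and 0.0704), and Rpph1 without cKO library 3 (0.0587). The nearest genes did not follow them: Ccdc107, 281 bases from Rmrp, had a log2 change of 0.20, and Parp2, 126 bases from Rpph1, had one of -0.25, and both overlapped between groups.

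Neither RNA has a poly(A) tail as its usual form, and the libraries were made from poly(A) RNA. Of 21 tested genes whose symbols name such RNAs (small nucleolar, spliceosomal, vault, ribosomal precursor and miRNA genes, with these 2 among them), grouped after their values were seen, 16 were below 0 and 5 above 0. The groups did not overlap in 5 of them that were lower in the cKO, Rmrp and Rpph1 included, beside 1.37% of all genes tested. They did not overlap in 1 that was higher, Snora52, which was also called, beside 17.7% of all genes tested. The median log2 change of the 21 was -1.71. The gene list for short noncoding RNA, which was not grouped in this way, showed no such shift. It holds Rmrp and Rpph1, and also long RNAs such as Neat1. Of its 11 tested genes, these 2 were called lower, none higher and 9 were not called. Among the 11, 6 were above 0, with a median log2 change of 0.35. The groups did not overlap in 3 that were higher in the cKO and in 2 that were lower. Rn45s, the ribosomal RNA precursor, was at 312, 288 and 315 TPM in the cKO caput, against 1344, 450 and 1832 TPM in the control caput. Snord22, a small nucleolar RNA, was at 13.1, 53.3 and 77.7 TPM in the cKO, against 215.6, 90.0 and 443.4 TPM in the control. Neither overlapped between groups, and neither was called, with limma adjusted p of 0.324 and 0.380. Many of the others among the 21 were listed at 0 in 1 or more libraries. The part that carry-over of RNA without poly(A) tails has in the values of Rmrp and Rpph1 was not tested.

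In the cauda, the tail of the epididymis, of the same line, 4 cKO and 4 control libraries gave the opposite order for both RNAs. Rmrp was at 87.9, 64.0, 110.7 and 10.1 TPM in the cKO cauda, against 17.04, 40.1, 37.4 and 8.93 TPM in the control cauda. Rpph1 was at 87.5, 57.9, 196.4 and 27.02 TPM in the cKO cauda, against 26.1, 35.8, 51.5 and 12.5 TPM in the control cauda. The cauda groups overlapped, though each cKO library lay above the control library of the same number. The log2 effect in the caput minus that in the cauda was -3.22 (SE 1.03) for Rmrp and -3.34 (SE 0.80) for Rpph1. These differences had limma adjusted p of 0.101 and 0.0792, and 0.00747 and 0.00260 with the number as a block within each segment. Rn45s had a log2 effect of -1.76 in the caput and 1.30 in the cauda, and the difference was not called (limma adjusted p = 0.151).

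**Figure D4:**
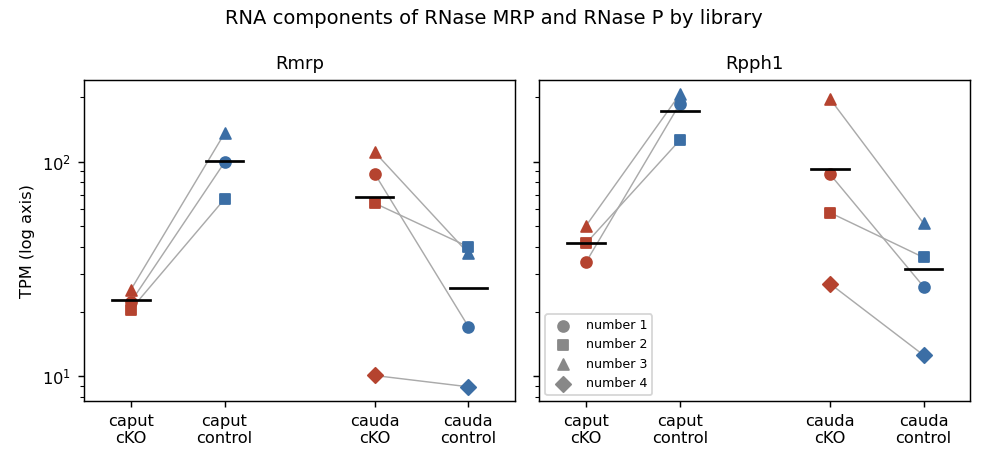
TPM (log axis) of Rmrp and Rpph1 by library, cKO left of control within the caput (3 and 3 libraries) and the cauda (4 and 4 libraries); grey lines join equal numbers and black bars are group means. The lines slope up toward the control in the caput and down toward it in the cauda.

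The late spermatid genes were set beside the cauda in the same way. Prm2 was at 3146, 1529, 4374 and 2108 TPM in the cKO cauda, against 805, 739, 1589 and 278 TPM in the control cauda. Its log2 effect was 2.09 in the caput and 1.85 in the cauda, and the difference of 0.24 (SE 0.69) had a limma adjusted p of 0.874. For Prm1, Tnp1 and Tnp2 the difference between segments was -0.08 (SE 0.86), 0.92 (SE 0.89) and 0.56 (SE 0.76), and none passed the threshold with or without the block. These standard errors leave room for differences of 1 log2 unit in either direction. Over the list, 31 of 39 genes were above 0 in the cauda with a median of 0.87, beside 26% of all genes and a median of -0.14. No gene was called in the cauda, in which 1220 genes had an unadjusted p under 0.05 in the same limma fit, and 12 were called with the block. Of the 95 genes that rose in the caput, 93 were above 0 in the cauda, with a median log2 effect of 1.24, and 10 were higher without overlap between the cauda groups, beside 0.6% of all genes tested there.

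Across 12993 genes, none passed the test of the difference between segments (0%), with 3283 at an unadjusted p under 0.05 in limma. With the block within each segment 2705 passed, 2657 of them upward, and after median-ratio scaling with the block 1473 passed, 703 upward and 770 downward. The median difference over all genes was 0.36 and became 0.03 with median-ratio scaling. The count without the block was 1020 without caput control library 1 and 709 without caput cKO library 2.

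Few of the secretory genes that mark the caput passed the test. Of 35 beta-defensin and Spag11 genes in the table, 30 were tested, 1 rose and none fell, beside 0.807% of all genes tested that rose. The one that rose was Defb35, at 3.03, 3.13 and 2.85 TPM in the cKO caput and listed at 0 in all 3 control libraries. Defb35 passed the filter through the cKO libraries alone. Its log2 change ran from 0.68 to 4.95 over 16 alternative fits, and 12 of them called it. Of the 30, 19 were above 0, with a median log2 change of 0.43, beside 0.21 over all genes tested. The abundant members were not called. Spag11b was at 23110, 15345 and 21189 TPM in the cKO caput and 21665, 15218 and 15481 TPM in the control caput. Defb20 was at 15641, 10355 and 17908 TPM in the cKO and 17111, 25721 and 21676 TPM in the control, and Defb25 was at 14372, 20240 and 17390 TPM in the cKO and 16922, 28581 and 25731 TPM in the control. The groups of each gene overlapped, but Defb20 and Defb25 were lower in the cKO in all 3 equal-numbered pairs, with limma adjusted p of 0.237 and 0.0628 with the block. Their log2 changes with the block were -0.78 and -0.64 under median-ratio scaling (limma adjusted p = 0.157 and 0.0830). They were -0.22 and -0.48 under quantile normalization (limma adjusted p = 0.458 and 0.0707). Defb45 was called higher only with the replicate block, at 2057, 1725 and 1369 TPM in the cKO and 1463, 682 and 866 TPM in the control. Its call was lost with the block once median-ratio or quantile scaling was added (limma adjusted p = 0.158 and 0.0698).

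None of the 10 epididymal lipocalins was called by either fit. Of the 10, 5 were above 0, with a median log2 change of 0.14, beside 0.21 over all genes tested. Lcn8 averaged 16960 ± 2129 TPM in the cKO caput and 22140 ± 5515 TPM in the control caput (SD, n = 3 each), with a log2 change of -0.36 (SE 0.19). Lcn2, which binds iron-loaded siderophores, had a log2 change of -0.36 as well, and Lcn9 had one of -0.37. All 3 were lower in the cKO in 3 of 3 pairs, with limma adjusted p of 0.0973, 0.126 and 0.0761 with the block. Their size depended on scaling. With the block, log2 changes were -0.57, -0.56 and -0.58 under median-ratio scaling (limma adjusted p = 0.101, 0.116 and 0.0776). Under quantile normalization they were -0.17, -0.05 and -0.22 (limma adjusted p = 0.543, 0.862 and 0.342). Lcn5 had a log2 change of 1.55 but an SE of 1.57, since library 1 was far from the others in both genotypes. Of 38 tested sperm-coating and caput secreted proteins, none was called without the block. With the block Adam7, a sperm-binding protein of the caput, was called higher (log2 change 0.58, limma adjusted p = 0.0488) and Ly6g5c lower (log2 change -0.59, limma adjusted p = 0.0444). Over all genes tested, 2.67% were called higher with the block and 0.0594% lower. Ly6g5c, one of the most abundant secreted genes, was at 4360, 4614 and 5109 TPM in the cKO and 5305, 8177 and 8043 TPM in the control, with no overlap. The call of Adam7 was lost with the block under median-ratio or quantile scaling (limma adjusted p = 0.207 and 0.0808).

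Genes of the initial segment respond to factors from the testis. Of 35 in the table, 29 were tested and none passed without the block. With it 1, Adam7, was called higher, beside 2.67% of all genes tested. The median log2 change of the list was 0.11, beside 0.21 over all genes. Of the 29, 17 were above 0, beside 73.8% of all genes tested. The groups did not overlap in 3, all higher in the cKO, beside 17.7% of all genes tested. Etv4 and Etv5, transcription factors induced by growth factor signalling there, had log2 changes of -0.47 (SE 0.28) and -0.25 (SE 0.22). Cst11 and Cst8, cystatins of the proximal caput, had log2 changes of -0.23 and -0.16, and Ros1, the receptor kinase without which the segment does not form in mice, was at 3.92, 3.36 and 6.25 TPM in the cKO and 3.16, 0.92 and 5.39 TPM in the control. In each of these genes the groups overlapped. Androgen and steroid signalling (13 tested), fatty acid synthesis and lipid handling (24), cholesterol synthesis (22), oxidative stress and glutathione (35), polyamine synthesis (13), epididymal homeobox and patterning genes (23) and principal cell transport and junctions (18) held 1 call among them without the block. That call was Oaz3, described with the spermatid genes. The lists for the circadian clock (18 tested), immediate early genes (31), inflammation and acute phase (12), the interferon response (19), proliferation (16), the cauda and vas deferens (10) and other glands (2) held no call without the block. With it, 1 of the 18 principal cell genes was called higher, beside 2.67% of all genes tested. This was Krt19, a keratin, at 543, 617 and 553 TPM in the cKO and 363, 341 and 442 TPM in the control. Krt19 lost that call under median-ratio scaling (limma adjusted p = 0.222). Crisp2, already described, stands on the cauda list too.

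**Figure D5:**
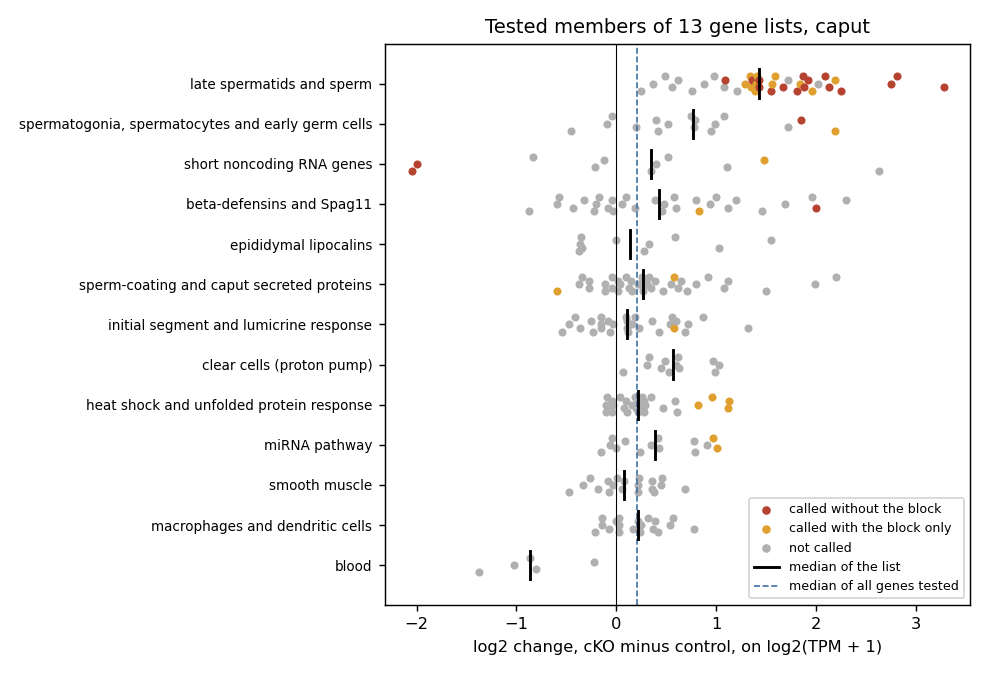
Log2 change, cKO minus control, of each tested gene of 13 lists in the caput; black bars are list medians and the dashed line is the median of all genes tested, 0.21. The late spermatid list, with a median of 1.43, and blood, with a median of -0.86, stand farthest from the dashed line.

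Among the cell types of the duct wall and its vessels, no list had a call without the block. The tested members numbered 12 for clear cells, 12 for basal cells, 19 for smooth muscle, 19 for macrophages and dendritic cells, 15 for endothelium and pericytes, 20 for fibroblasts and matrix, 5 for T, B and NK cells, 2 for neutrophils and mast cells, 8 for nerves and Schwann cells and 5 for adipocytes. Clear cells, which acidify the lumen with a proton pump, had no call, but all 12 genes were above 0, with a median log2 change of 0.57, and 11 of 12 remained above 0 after median-ratio scaling with a median of 0.39. Foxi1, their transcription factor, was at 57.6, 39.8 and 53.0 TPM in the cKO and 48.4, 36.7 and 34.0 TPM in the control. With the block, 1 of the 20 fibroblast and matrix genes was called higher, beside 2.67% of all genes tested. This was Dcn, the proteoglycan decorin, at 34.9, 18.6 and 47.7 TPM in the cKO and 18.1, 5.69 and 17.03 TPM in the control. Of the 5 T, B and NK cell genes, 1 was called lower with the block, beside 0.0594% of all genes tested. This was Zap70, at 29.8, 74.6 and 73.9 TPM in the cKO and 50.2, 106.7 and 109.9 TPM in the control, with overlap.

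Red blood cell transcripts were lower in the cKO without passing the test. Hbb-bs, an adult beta globin, was at 200.7, 110.7 and 60.4 TPM in the cKO caput, against 301.2, 365.7 and 217.2 TPM in the control caput, with no overlap. Its log2 change was -1.38 (SE 0.43, limma adjusted p = 0.324; 0.0584 with the block). Hba-a2 and Hbb-bt had log2 changes of -1.03 and -0.86, and globin copies share reads. All 5 tested genes of the list were below 0, and none was called by either fit on the 6 libraries. When cKO library 1, the highest of the cKO group and the nearest to the controls, was left out, 3 were called lower. The summed level of the list, over 8 genes of the table, was 746, 374 and 214 TPM in the cKO libraries and 926, 944 and 683 TPM in the control libraries. The part of blood in the other values was not tested.

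Of 30 heat shock and unfolded protein response genes, none was called without the block and 4 were called higher with it, beside 2.67% of all genes tested. Hspa5, the chaperone BiP of the endoplasmic reticulum, was at 176.7, 96.1 and 215.9 TPM in the cKO caput and 78.3, 45.1 and 98.4 TPM in the control caput. The groups overlapped by the low value of cKO library 2, but each cKO library was above its equal-numbered control, with a log2 change of 1.12 (limma adjusted p = 0.324 without the block and 0.00252 with it). Hsp90b1, another chaperone of that compartment, was at 174.4, 79.1 and 160.9 TPM in the cKO and 83.0, 42.5 and 83.5 TPM in the control. Hsp90aa1 and Hspd1 were the other 2, and they missed the threshold with the block under median-ratio scaling (limma adjusted p = 0.0711 and 0.127), where Hspa5 and Hsp90b1 passed (0.0203 and 0.0428). The median log2 change of the list was 0.22, beside 0.21 over all genes tested.

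In the miRNA pathway list 14 genes were tested, none was called without the block, and Ddx5 and Ddx17 were called higher with it, beside the same 2.67%. These 2 RNA helicases associate with Drosha. Ddx17 was at 62.7, 41.8 and 85.3 TPM in the cKO caput and 31.0, 23.6 and 35.8 TPM in the control caput, with no overlap. Ddx5 was at 73.9, 43.8 and 99.7 TPM in the cKO and 34.5, 27.1 and 43.9 TPM in the control, and missed the threshold with the block under median-ratio scaling (limma adjusted p = 0.0584). Drosha, Dicer1 and Xpo5, the core enzymes and the exporter, had log2 changes of -0.06, 0.42 and 0.35 and were not called. Neat1, the long noncoding RNA that builds paraspeckles, was at 96.9, 54.6 and 135.4 TPM in the cKO and 24.98, 25.2 and 49.5 TPM in the control, and passed only with the block (log2 change 1.48, limma adjusted p = 0.204 without it and 0.00484 with it). Of 23 patterning genes tested, 2 were called higher with the block, beside the same 2.67%. These were Hoxd4 and Hoxa5, with log2 changes of 0.74 and 1.23. Neither passed once median-ratio scaling was added (limma adjusted p = 0.120 and 0.0865). Genes called lower with the block alone were Ly6g5c, Ggt7, Hs3st6, Sema7a and Zap70, with log2 changes of -0.59 to -0.74. With the block, Ly6g5c missed the threshold under median-ratio scaling (limma adjusted p = 0.0576), and Sema7a and Zap70 did so under quantile normalization (0.0709 and 0.0665).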

How the data were processed

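Per the labels, total RNA of caput tissue was made into libraries with a stranded mRNA kit and mapped to mm10. The authors deposited TPM per gene, computed with RSEM per the submitters' processing notes; no aligner, software version or strand setting is recorded there. TPM carry no read counts, so no counting interval is given. TPM of 23845 genes were tested in R 4.3.3 with limma 3.58.1 (trend, robust) on log2(TPM + 1), a scale that understates changes of low genes, for 11776 genes with at least 1 TPM in 3 of 6 libraries; Benjamini-Hochberg adjustment ran over all of them. The segment difference used the 14 caput and cauda libraries of the line. Deviations from the group means correlated between equal numbers at 0.466, 0.217 and 0.234 in the caput, and at 0.303 to 0.464 in the cauda. All other caput combinations were at most 0.0557, but deviations within a group sum to 0, so positive values at equal numbers push these down. Numbers were therefore taken as pairs in an added fit with the block. The main fit, which defines a call where the block is not named, had no block. The comparison and 35 gene lists (835 of 872 symbols found) were chosen with earlier results of these data known. Named genes were the 15 largest called changes per direction and fit with a mean of at least 5 TPM, each list's called members and its 3 most abundant ones, and the 10 most abundant genes. A gene of the late spermatid list is counted but not reported here. The test was tried on simulated data. Alternatives changed the pseudocount (0.1, 5), filter, scaling, robust option, block and libraries. Sequences and gene positions are RefSeq's on GRCm38.p6, the assembly that mm10 names.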

Additional observations from a re-analysis of the deposited data

How the results depend on the processing

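Against 97 called genes, the replicate block gave 322, pseudocount 0.1 gave 40, no filter on low values 47, median-ratio scaling 57, quantile normalization 44 and the fit on all 14 libraries 0. The replicate block with no filter gave 56, and with both libraries numbered 1, 2 or 3 left out 741, 1676 and 159. With a number left out, few libraries remain beside the block, and the p-values rest mainly on the variance shared across genes. The larger counts of those fits are not firmer calls. The other whole-library alternatives gave 67 to 134. Leaving out single libraries gave 1 to 183. For the 16 called late spermatid genes, the replicate block gave 27, the fit on 14 libraries 0, the block with both libraries numbered 1 or 2 left out 30 and 34, and leaving out single libraries 1 to 26; the remaining alternatives gave 11 to 21. For the difference between segments, 0 genes became 2705 with the replicate block within each segment, 1473 with the block and median-ratio scaling, and 0 to 1020 when single libraries were left out, where without cauda control library 2 it was 1. The blocks with quantile normalization and with median-ratio scaling between segments were added after the data were seen. Of the blood list, 1 gene was called lower under quantile normalization. No named called gene changed sign in any alternative. The cause of these shifts was not tested. Depth is unknown, so the precision of low genes cannot be given.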
